A study of Mus musculus with 4 samples.

Results

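Genes of sterol and fatty acid synthesis, listed as targets of the sterol regulatory element-binding proteins (SREBPs), their regulators or related factors, were examined. They were followed through the first days of fat cell differentiation, with and without the histone methyltransferase MLL4. Whether each is an SREBP target in these cells was not tested. The 39 listed genes were taken by symbol, with no threshold on a measured value. They comprise 18 enzymes of sterol synthesis, 6 regulators of the pathway and 15 genes of the fatty acid arm. Of these, 38 were matched among the 22463 gene symbols of the files, and all 38 were expressed, defined as an RPKM (reads per kilobase of exon, scaled to the mapped reads of the library) above 1 in Ad-GFP-infected cells at day 0 or day 2. In all, 11541 genes met that definition. The expression of *Hmgcs1* was not analysed here.

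The cells were C57BL/6J brown preadipocytes from embryos of day 18.5, immortalized with SV40T, of genotype *Mll3*-/-*Mll4* f/f. Cells infected with adenoviral GFP (Ad-GFP, labelled WT) kept *Mll4* and lacked *Mll3*, and cells infected with adenoviral Cre (Ad-Cre) lacked both genes by their labels, so every library comes from *Mll3*-/- cells. RNA-Seq was run at confluence before induction (day 0) and 2 days after addition of insulin, T3, indomethacin, dexamethasone and IBMX (day 2). Each of the 4 conditions had 1 library, so there is no replicate and no test between conditions. The 95% intervals given with ratios are exact binomial intervals of the reads and cover counting error only. The ratio of Ad-Cre to Ad-GFP cells on the same day is called the Cre/GFP ratio. A gene was called higher or lower when its RPKM ratio passed 2.5-fold, a log2 ratio of 1.32, after the study's methods. Whether the line is 1 clone is not given in the sources used here.

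SREBPs are transcription factors made as membrane proteins of the endoplasmic reticulum. When sterols are low, SCAP, encoded by *Scap*, escorts them to the Golgi, where proteases release the active factor, and INSIG proteins hold SCAP back when sterols are high. The product of *Srebf2* acts mainly on cholesterol synthesis and that of *Srebf1* mainly on fatty acid synthesis, the route by which fat cells make triglyceride from glucose. SREBPs usually bind beside NF-Y and SP1, which recognise the CCAAT box and the GC box.

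Promoter windows of 250 bases upstream of the gene start were available for 32 of the 39 genes in the RefSeq promoter table (GRCm38.p6). They were not available for *Fdps*, *Fdft1*, *Sqle*, *Stard4*, *Scd1*, *Scd2* and *Fads1*. The NF-Y box, searched as CCAAT on both strands, occurred in the windows of 14 of 15 sterol enzyme genes, 4 of 5 regulators and 8 of 12 fatty acid genes. It occurred in the windows of 37.5% of all 27025 genes in the table and of 41.0% of the 9047 genes expressed here. The GC box, searched as GGGCGG, occurred in 14 of 15, 5 of 5 and 6 of 12 genes of the same groups and in 66.7% of expressed genes. The E-box CACGTG occurred in 3 of 15, 2 of 5 and 2 of 12 genes, against 10.2% of expressed genes. A core of the sterol regulatory element, TCACNCCAC, was found in the windows of *Hmgcs1* and *Mlxipl* alone among the members, against 1.25% of expressed genes. These motifs do not overlap in their letters, and a match is a description of the letters and not of binding.

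The stretches below surround the NF-Y box nearest to the gene start, in capitals as CCAAT or, on the opposite strand, ATTGG. They are shown for the 8 sterol enzymes with a window that were over 2.5-fold lower at day 2 than at day 0 in either genotype, and for *Insig1*, *Srebf1* and *Fasn*, which represent the feedback regulator, the factor and the fatty acid arm. Each is written 5′ to 3′ on the strand of its gene in GRCm38.p6 and ends at or before the gene start.
Mvd (chr8:122443423-122443474, minus strand): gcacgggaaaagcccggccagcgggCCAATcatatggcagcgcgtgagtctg
Idi1 (chr13:8885567-8885605, plus strand): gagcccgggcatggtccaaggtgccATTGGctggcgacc
Lss (chr10:76531518-76531572, plus strand): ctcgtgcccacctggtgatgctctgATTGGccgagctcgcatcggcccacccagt
Cyp51 (chr5:4104698-4104751, minus strand): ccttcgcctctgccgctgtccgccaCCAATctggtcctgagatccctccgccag
Msmo1 (chr8:64733604-64733658, minus strand): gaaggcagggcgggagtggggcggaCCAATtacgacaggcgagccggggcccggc
Nsdhl (chrX:72918476-72918520, plus strand): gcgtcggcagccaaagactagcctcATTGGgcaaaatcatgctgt
Hsd17b7 (chr1:169969206-169969242, minus strand): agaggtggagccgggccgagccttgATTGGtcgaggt
Sc5d (chr9:42264301-42264349, minus strand): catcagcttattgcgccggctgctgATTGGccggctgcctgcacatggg
Insig1 (chr5:28071171-28071225, plus strand): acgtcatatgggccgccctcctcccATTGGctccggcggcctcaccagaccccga
Srebf1 (chr11:60222718-60222772, minus strand): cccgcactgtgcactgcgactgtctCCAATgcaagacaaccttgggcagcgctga
Fasn (chr11:120824577-120824631, minus strand): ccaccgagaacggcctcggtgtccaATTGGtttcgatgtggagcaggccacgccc
In these windows the box began between 12 and 62 bases before the gene start in the 8 sterol enzyme genes, and 216 bases before it in *Insig1*, 166 in *Srebf1* and 59 in *Fasn*.

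The 4 libraries held between 15831915 and 22099995 reads on RefSeq transcripts. Reads on the whole *Mll4* transcript (current symbol *Kmt2d*) gave 18.5, 18.7, 16.3 and 15.6 RPKM in Ad-GFP day 0, Ad-GFP day 2, Ad-Cre day 0 and Ad-Cre day 2. This count covers far more of the gene than the floxed exons and is no check of the deletion. The library of Ad-Cre cells at day 2 differed from the others by exon length and GC content. Over all expressed genes, the median log2 Cre/GFP ratio at day 2 ran from −0.71 in the lowest of 20 bins of GC content to 0.69 in the highest, and from 0.51 in the shortest to −0.81 in the longest of 20 bins of exon length. At day 0 the same medians were 0.12 and 0.04 in the outer GC bins. The ratio of day 2 to day 0 in Ad-Cre cells showed the same trends, from −0.47 to 0.62 over GC content and from 0.85 to −0.67 over length. In Ad-GFP cells it ran the other way over GC content, from 0.37 to −0.10, and was 0.17 and 0.16 in the outer bins of length, so the GC trend between genotypes at day 2 draws on both day 2 libraries. Ratios that involve them are therefore given where needed also after removing both trends, a correction chosen after the values were seen, and the part of these trends in the results was not otherwise tested.

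Members differed widely in level. The RPKM values of a gene are given in the order Ad-GFP day 0, Ad-GFP day 2, Ad-Cre day 0, Ad-Cre day 2. The median RPKM over the 17 sterol enzymes was 29.6, 13.7, 37.6 and 16.02, and their summed RPKM was 512, 253, 700 and 307. Both day 2 libraries were thus below both day 0 libraries. The 15 fatty acid genes summed to 1190, 712, 1106 and 484 RPKM, of which *Scd2*, a stearoyl-CoA desaturase that makes monounsaturated fatty acids, gave 577, 207, 412 and 133. It was the most abundant fatty acid gene in all 4 libraries. Among the sterol enzymes *Sqle*, the squalene epoxidase, was the most abundant at day 0 in both genotypes, *Lss* at day 2 in Ad-GFP cells and *Pmvk* at day 2 in Ad-Cre cells. *Idi1* was the least abundant sterol enzyme throughout, with 59, 29, 101 and 14 reads, and 84.6% of its 50-base windows matched elsewhere in the genome, so its reads cannot be placed with certainty.

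**Figure D1:**
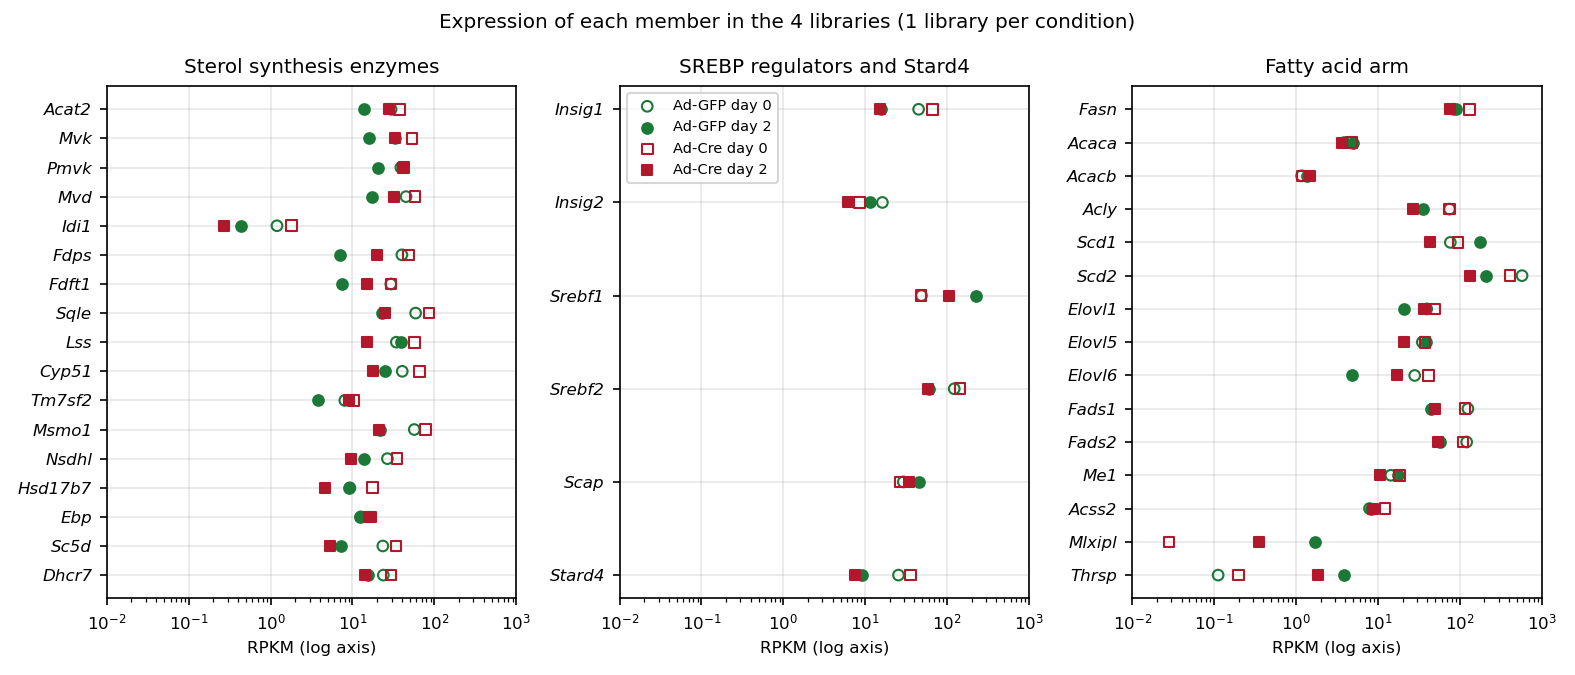
RPKM on a log axis for each of the 38 matched genes in the 4 libraries, with 1 library per condition and no error bars. Open symbols are day 0 and filled symbols day 2, circles Ad-GFP and squares Ad-Cre, and *Mlxipl* in Ad-GFP cells at day 0 had 0 reads and is not drawn. Most sterol enzymes have the 2 filled symbols to the left of the open ones, while *Srebf1* and *Thrsp* have them to the right.

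The sterol enzymes were lower at day 2 than at day 0 in Ad-GFP cells. The median log2 ratio over the 17 enzymes was −1.09, against 0.15 over all expressed genes, and 16 of 17 had a ratio below 0, against 43.2% of all genes. Those over 2.5-fold lower numbered 7 of 17, against 12.7% of all genes, and 0 of 17 were over 2.5-fold higher, against 8.38%. The lower genes numbered 3 of 17 when the whole interval had to pass the cutoff, and 4 of the 12 enzymes without ambiguous or overlapping reads. The interval of 2 enzymes, *Hsd17b7* and *Ebp*, held 0.

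The lowest ratios were those of *Fdps*, which makes farnesyl diphosphate, and of *Fdft1*, the squalene synthase that takes it into the sterol branch. *Fdps* (NM_001253751, chr3:88897514-88905881, minus strand, mm9) had 40.1, 7.12, 48.6 and 19.7 RPKM, a 5.64-fold lower level at day 2 in Ad-GFP cells. Of its 50-base windows 63.2% matched elsewhere, and how the authors treated such reads is not given in the sources used here. *Fdft1* had 29.4, 7.45, 29.6 and 15.1 RPKM and was 3.94-fold lower, with 22.2% of windows matching elsewhere and 26.9% of its exon bases shared with *Ctsb*.

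The other 5 enzymes past the cutoff were *Sc5d*, *Idi1*, *Mvd*, *Msmo1* and *Sqle*. *Sc5d*, the lathosterol oxidase near the end of the pathway (NM_172769, chr9:42062260-42072383, minus strand), had 23.5, 7.22, 33.8 and 5.25 RPKM, a log2 ratio of −1.70 (95% interval −1.88 to −1.53) in Ad-GFP cells. *Sqle*, the first oxygen-requiring and a rate-limiting step, had 59.0, 23.0, 85.6 and 24.8 RPKM, a log2 ratio of −1.36 (−1.45 to −1.26). *Msmo1*, the C4-methyl sterol oxidase, had 56.9, 21.8, 77.9 and 21.2 RPKM (log2 ratio −1.38), and *Mvd*, the mevalonate diphosphate decarboxylase, 45.1, 17.4, 58.1 and 32.0 (−1.38). In these 4 genes both day 2 libraries lay below both day 0 libraries. With the length and GC trends removed *Mvd* fell short of the cutoff in Ad-GFP cells (−1.21) and *Nsdhl* passed it (−1.33).

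*Lss* was the exception. It encodes lanosterol synthase, which closes the sterol rings (NM_146006, chr10:75994333-76019883, plus strand). It had 34.3, 39.1, 57.1 and 15.0 RPKM, so that its level at day 2 in Ad-GFP cells was 1.14-fold that of day 0 (log2 ratio 0.19, 0.10 to 0.27), while in Ad-Cre cells it was 3.81-fold lower. Its level in Ad-Cre cells at day 2 was the lowest of the 4 libraries.

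In Ad-Cre cells the sterol enzymes were also lower at day 2, with a median log2 ratio of −1.30 against −0.01 over all genes, and 17 of 17 had a ratio below 0, against 50.6% of all genes, or 15 of 17 with TMM factors and 14 of 17 with summed counts as library size, where ratios near 0 crossed it. Over 2.5-fold lower were 8 of 17, against 10.0% of all genes, and 0 of 17 were over 2.5-fold higher, against 8.68%. *Idi1*, *Sqle*, *Msmo1* and *Sc5d* passed the cutoff in both genotypes. They were 4 of the 7 enzymes that passed in Ad-GFP cells and 4 of the 8 in Ad-Cre cells. Over all expressed genes the shared genes were 45.01% of those lower in Ad-GFP and 56.92% of those lower in Ad-Cre cells. With the length and GC trends removed the median was −1.47 in Ad-Cre cells. There 11 of 17 were past the cutoff in the lower direction, against 955 of 11541 expressed genes. The shared enzymes were then 6 of the 7 past it in Ad-GFP cells and 6 of the 11 in Ad-Cre cells. Over all expressed genes the shared genes were 47.14% and 70.79% of the same lists under this setting.

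As deposited, the 4 enzymes past the cutoff in Ad-Cre cells alone act after squalene. With both trends removed *Nsdhl* passed in both genotypes, and *Mvk* (−1.34) and *Mvd* (−1.45), which act before squalene, passed in Ad-Cre cells alone. Besides *Lss* they were *Cyp51*, the lanosterol 14-demethylase, with 40.5, 25.3, 66.0 and 17.7 RPKM, *Nsdhl*, a C4 decarboxylase, with 26.7, 13.7, 34.9 and 9.70, and *Hsd17b7*, a keto reductase, with 9.28, 8.97, 17.5 and 4.60. Their log2 ratios in Ad-Cre cells were −1.90, −1.85 and −1.93, against −0.68, −0.96 and −0.05 in Ad-GFP cells. In each of them Ad-Cre cells had the higher level at day 0 and, as deposited, the lower level at day 2. After removal of both trends the log2 Cre/GFP ratio at day 2 was above 0 for *Cyp51* (0.26), −0.02 for *Hsd17b7* and −0.05 for *Nsdhl*. The difference between the 2 inductions was not tested. *Ebp*, the sterol isomerase, had a ratio near 1 in both genotypes (log2 ratios −0.02 and −0.04).

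**Figure D2:**
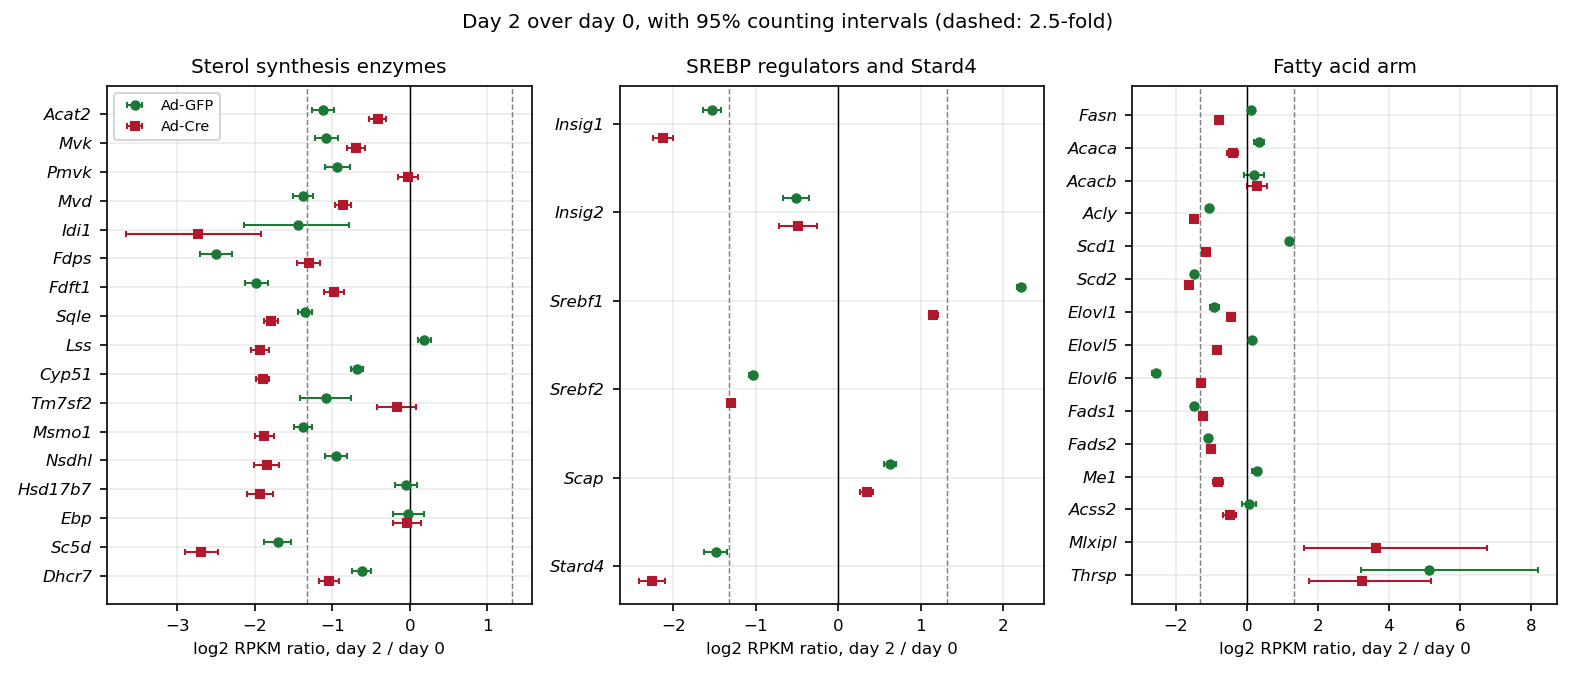
The log2 RPKM ratio of day 2 to day 0 for each gene in Ad-GFP cells (circles) and Ad-Cre cells (squares), with exact binomial 95% counting intervals and dashed lines at 2.5-fold. In the left panel 16 of 17 circles and all 17 squares lie below 0, the squares in 15 of 17 with TMM factors. *Mlxipl* in Ad-GFP cells has no finite ratio and is not drawn.

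The regulators differed in direction. *Srebf1* rose and *Insig1* and *Stard4* fell past 2.5-fold in Ad-GFP cells, giving 1 of 6 higher and 2 of 6 lower, against 8.38% and 12.7% of all genes. In Ad-Cre cells 0 of 6 were higher and the same 2 genes lower, against 8.68% and 10.0%. *Srebf1* also passed in Ad-Cre cells with summed counts as library size or with the length trend removed (1.41), and *Srebf2* passed there in the lower direction with both trends removed (−1.43). The median log2 ratio was −0.77 with Ad-GFP and −0.90 with Ad-Cre.

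*Srebf1* (NM_011480, chr11:60012591-60036083, minus strand), which encodes both SREBP-1 isoforms that the whole-transcript count cannot part, had 48.7, 226, 47.9 and 107 RPKM. It rose 4.65-fold in Ad-GFP cells (log2 ratio 2.22), and its ratio in Ad-Cre cells was 2.23-fold (log2 ratio 1.15). The 2 genotypes had like levels at day 0, and at day 2 the Ad-Cre level was 2.12-fold lower. *Srebf2* (NM_033218, chr15:81977696-82035806, plus strand) took the other direction, with 122, 59.8, 144 and 58.2 RPKM and log2 ratios of −1.03 and −1.30.

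*Insig1*, itself an SREBP target that retains SCAP in the endoplasmic reticulum, had 44.9, 15.5, 65.9 and 15.1 RPKM, 2.90-fold lower at day 2 in Ad-GFP cells and 4.37-fold lower in Ad-Cre cells. Of its windows 32.5% matched elsewhere. Its paralog *Insig2* had 16.2, 11.4, 8.59 and 6.13 RPKM, with log2 ratios of −0.51 and −0.49, and was the regulator with the lowest Cre/GFP ratio at day 0. *Stard4*, a carrier of cholesterol between membranes, followed *Insig1*, with 25.5, 9.08, 35.9 and 7.49 RPKM. *Scap* had 29.2, 45.1, 26.7 and 33.9 RPKM, 1.54-fold and 1.27-fold higher at day 2, and 18.9% of its exon bases are shared with another annotated gene.

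The fatty acid arm was mixed in Ad-GFP cells. Its median log2 ratio was 0.12, close to the 0.15 of all genes, and 9 of 15 lay above 0, against 56.8% of all genes, with 2 of 15 over 2.5-fold higher and 3 of 15 lower, against 8.38% and 12.7% of all genes. In Ad-Cre cells the median was −0.81, against −0.01 over all genes, with 12 of 15 below 0, against 50.6%. There 2 were higher and 2 lower, against 8.68% and 10.0% of all genes. The 2 higher genes were *Mlxipl* and *Thrsp* in both genotypes, and in Ad-Cre cells neither passed with 1 RPKM added to each level.

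*Mlxipl* encodes the carbohydrate-responsive factor ChREBP and *Thrsp* the lipogenic protein Spot14, and both were near absent at day 0. *Mlxipl* had 0, 144, 2 and 23 reads. Set against the 3 reads taken as the limit of a count of 0 in a library, its level at day 2 in Ad-GFP cells was at least 35.9-fold higher than at day 0. *Thrsp* had 2, 93, 4 and 35 reads, a log2 ratio of 5.12 (3.23 to 8.19) in Ad-GFP and 3.24 (1.76 to 5.20) in Ad-Cre cells. In both genes the Ad-GFP library at day 2 was highest and the Ad-Cre library at day 2 second, and the reads at day 0 were too few to order.

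The desaturases and elongases had ratios on both sides of 0. *Scd1*, the main stearoyl-CoA desaturase of adipose tissue (NM_009127, chr19:44468941-44482199, minus strand), had 76.8, 174, 94.7 and 43.0 RPKM, 2.27-fold higher at day 2 in Ad-GFP cells and 2.20-fold lower in Ad-Cre cells. Its neighbour *Scd2* was lower in both, with log2 ratios of −1.48 and −1.63, the second short of the cutoff (−1.08) with both trends removed. *Elovl6*, which elongates palmitate (NM_130450, chr3:129235304-129341413, plus strand), had 28.2, 4.78, 41.8 and 17.0 RPKM, 5.89-fold lower in Ad-GFP and 2.45-fold lower in Ad-Cre cells, with 7.81% of its windows matching elsewhere. *Scd1* and *Elovl6* were thus ordered oppositely at day 2, *Scd1* highest and *Elovl6* lowest in the Ad-GFP library. *Fads1*, the delta-5 desaturase, had 126, 44.7, 116 and 49.4 RPKM, with log2 ratios of −1.49 and −1.24, the first past the cutoff.

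The enzymes on the way to palmitate had smaller ratios, apart from *Acly*. *Fasn*, the fatty acid synthase, had 84.0, 91.0, 132 and 75.9 RPKM, log2 ratios of 0.12 (0.08 to 0.15) in Ad-GFP and −0.80 (−0.83 to −0.77) in Ad-Cre cells. *Acaca*, the acetyl-CoA carboxylase of lipogenesis, had 3.89, 4.92, 4.77 and 3.63 RPKM, with 65.3% of its windows matching elsewhere. *Acly*, which supplies cytosolic acetyl-CoA, had 74.9, 35.8, 74.4 and 26.6 RPKM and was 2.79-fold lower at day 2 in Ad-Cre cells, against 2.09-fold in Ad-GFP cells. None of *Fasn*, *Acaca*, *Elovl5* and *Me1*, whose ratios as deposited lay above 0 in Ad-GFP and below 0 in Ad-Cre cells, passed 2.5-fold in either genotype. After removal of both trends *Acaca* lay above 0 in both (0.15 and 0.29) and *Elovl5* below 0 in both (−0.16 and −0.58), and with the length trend alone removed *Fasn* was at −0.04 in Ad-GFP cells.

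At day 0, before induction, all 17 sterol enzymes had log2 Cre/GFP ratios above 0, against 47.6% of all genes, and each was under 2.5-fold. The median was 0.39, against −0.02 over all genes. The lowest ratio was that of *Fdft1* (0.01) and the highest that of *Hsd17b7* (0.92, 0.79 to 1.05), and the intervals of *Fdft1* and *Pmvk* held 0. None of the 17 passed the cutoff, where 1.27% of all genes were higher and 4.12% lower. All 17 stayed above 0 with TMM factors and with the length and GC trends removed, and 16 of 17 with the length trend alone removed. *Lss*, *Cyp51* and *Mvk*, the mevalonate kinase, followed *Hsd17b7* with log2 ratios of 0.73, 0.70 and 0.67.

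The other groups were less uniform at day 0. Of the regulators 3 of 6 lay below 0, against 52.4% of all genes. Those above 0 were led by *Insig1* (0.55) and *Stard4* (0.50), and *Insig2* was 1.89-fold lower without *Mll4* (log2 ratio −0.92, −1.10 to −0.74). Of the fatty acid genes 11 of 15 lay above 0, with a median of 0.30, led among genes with over 3 reads in each library by *Fasn* (0.65), *Acss2* (0.63) and *Elovl6* (0.57). *Scd2* had a ratio of −0.48. *Mlxipl*, with 2 against 0 reads, was within the counting floor in both libraries and no fold is given.

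At day 2 the sterol enzymes no longer lay on 1 side. The median log2 Cre/GFP ratio was 0.11, against −0.16 over all genes, with 9 of 17 above 0, against 42.9% of all genes. *Fdps* was the 1 enzyme of 17 over 2.5-fold higher, against 8.16% of all genes, and *Lss* the 1 over 2.5-fold lower, against 10.1%. *Fdps* was 2.77-fold higher in Ad-Cre cells (log2 ratio 1.47, 1.25 to 1.70) and *Lss* 2.61-fold lower (−1.39, −1.50 to −1.27). With the length and GC trends removed, both fell short of the cutoff, at 1.20 and −1.22. The comparisons between genotypes share their libraries with those between days, so the 4 sets of ratios are not independent.

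Divided at squalene, a division made after the values were seen, 6 of the 7 enzymes up to squalene had day 2 Cre/GFP ratios above 0, with a median of 1.03. Of the 10 enzymes after it 3 lay above 0 and the median was −0.28. The first set had a median GC content of 52.3% and a median exon length of 1864 bases, the second 47.8% and 2499 bases. Across the 17 enzymes the day 2 ratio followed GC content (Pearson's r 0.66, Spearman's rho 0.65) and exon length (r −0.70, rho −0.82), a description over genes of the same libraries. With both trends removed the medians were 0.35 and 0.11, with 6 of 7 and 7 of 10 above 0. *Mvk*, *Pmvk* and *Mvd*, at 1.06, 1.03 and 0.88 as deposited, were then at 0.28, 0.35 and 0.17, while *Acat2*, *Fdps* and *Fdft1* stayed at 1.19, 1.20 and 1.28. Of the 50-base windows of these last 3 genes, 37.3%, 63.2% and 22.2% matched elsewhere in the genome, while none of those of *Mvk*, *Pmvk* and *Mvd* did. *Idi1*, the remaining enzyme up to squalene, had 84.6% and lay below 0, at −0.70, or −0.15 with both trends removed. The part of such reads in these ratios was not tested.

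**Figure D3:**
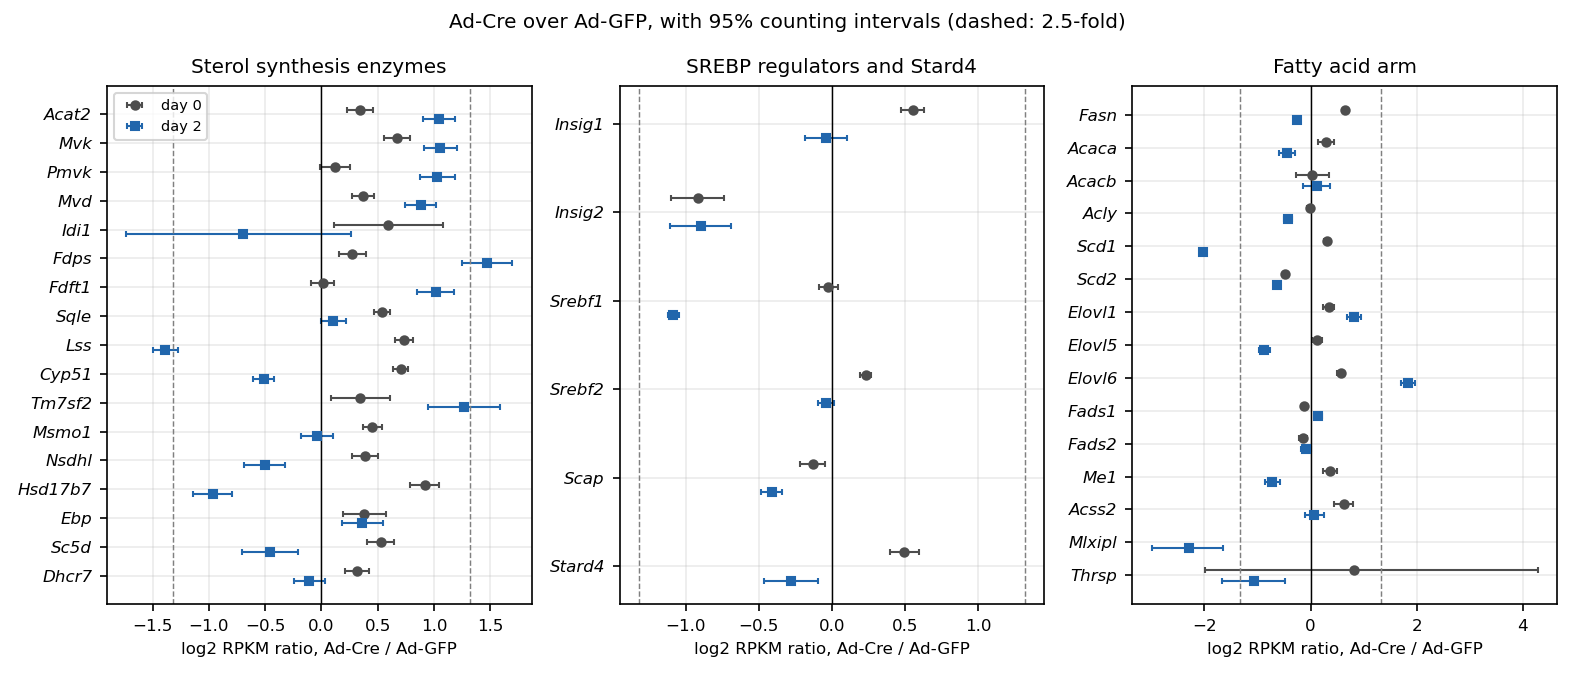
The log2 Cre/GFP ratio of RPKM for each gene at day 0 (circles) and day 2 (squares), with exact binomial 95% counting intervals and dashed lines at 2.5-fold. In the left panel every day 0 circle lies above 0 (16 of 17 with the length trend alone removed), while the day 2 squares run from −1.39 for *Lss* to 1.47 for *Fdps*. *Mlxipl* at day 0 has no finite ratio and is not drawn.

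**Figure D4:**
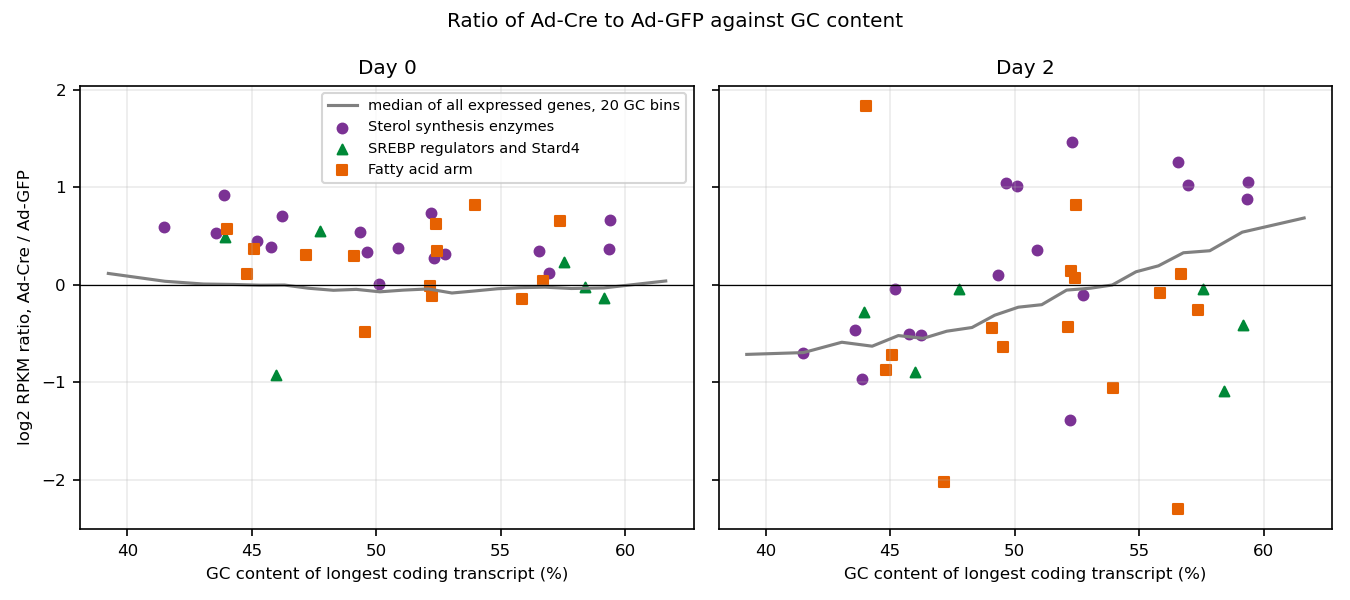
The same log2 ratios at day 0 (left) and day 2 (right) against the GC content of the longest coding transcript in percent, with the median of all expressed genes in 20 GC bins as a grey line. The line is flat at day 0 and climbs from −0.71 to 0.69 at day 2. Several sterol enzymes lie near it at day 2. *Fdps* (1.47), *Tm7sf2* (1.26), *Acat2* (1.04) and *Fdft1* (1.02) lie well above it and *Lss* (−1.39) far under it.

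All 6 regulators had Cre/GFP ratios below 0 at day 2 (median −0.35), against 57.1% of all genes, and none passed the cutoff. That direction rested on the scaling, since 4 of 6 were below 0 with TMM factors and 2 of 6 with the length trend removed. *Srebf1* had the lowest ratio (−1.08, −1.12 to −1.05, and −1.13 with both trends removed). *Insig1* and *Srebf2* were at −0.04 each, their intervals holding 0, and *Insig2* was at −0.90.

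In the fatty acid arm the median at day 2 was −0.43, against −0.16 over all genes, with 5 of 15 above 0, against 42.9%. Of the 15 genes 1 was over 2.5-fold higher and 2 lower, against 8.16% and 10.1% of all genes. *Scd1* was 4.05-fold lower in Ad-Cre cells (log2 ratio −2.02, −2.07 to −1.97), and *Mlxipl* 4.91-fold lower (−2.30, −3.00 to −1.65). *Elovl6* was 3.56-fold higher (log2 ratio 1.83). With both trends removed *Scd1* was at −1.28, short of the cutoff, *Mlxipl* at −2.29 and *Elovl6* at 2.72, and *Thrsp*, at −1.06 as deposited, passed it at −1.55. The median was then −0.07, and 0.02 with the length trend alone removed, so no direction of the arm as a whole is given.

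**Figure D5:**
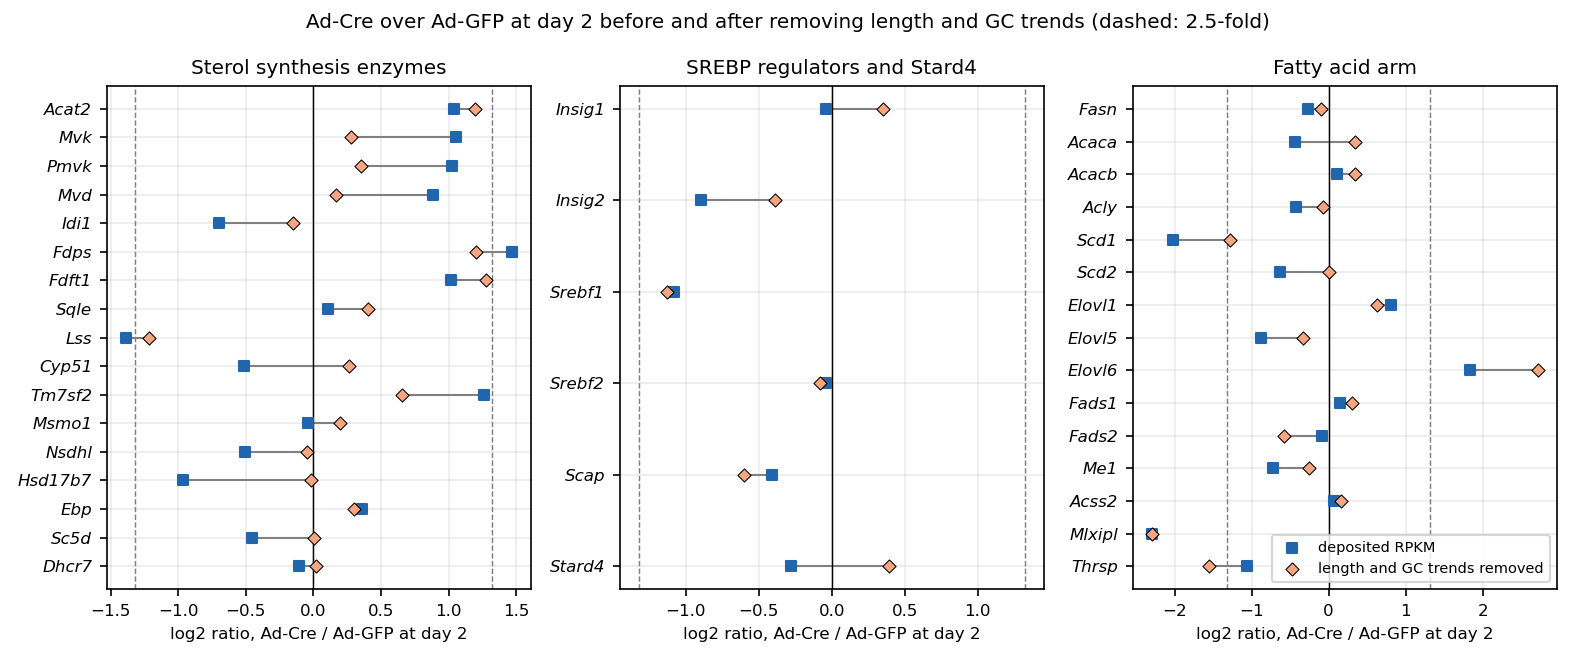
The day 2 Cre/GFP ratio (log2) of each gene as deposited (squares) and after removal of the length and GC trends over all expressed genes (diamonds), joined by a line, with dashed lines at 2.5-fold. *Hsd17b7* moves from −0.96 to −0.02 and *Scd1* from −2.02 to −1.28, while *Srebf1* and *Mlxipl* keep their values within 0.05.

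Other genes of sterol synthesis and SREBP control were taken from lists that are not members. Of 10 further sterol genes, 0 were over 2.5-fold higher in either induction and 0 passed at day 0 between genotypes. *Nus1* alone was lower in Ad-Cre cells at day 2 (−1.48, and −0.52 with both trends removed), against 10.1% of all genes.

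Most of the 8 genes of SREBP processing and degradation lay above 0 in Ad-GFP cells, the other side from the sterol enzymes. In Ad-Cre cells most lay below 0 as deposited. In Ad-GFP cells 7 of 8 had ratios of day 2 to day 0 above 0 (median 0.59), against 56.8% of all genes, and 1 was past the cutoff, against 8.38%, *Erlin1*, an endoplasmic reticulum protein of INSIG and reductase degradation, at 1.80. In Ad-Cre cells 6 of 8 lay below 0 (median −0.65), against 50.6% of all genes. There 0 of 8 passed, or 1 with both trends removed (*Paqr3*, −1.55), against 8.68% of all genes higher and 10.0% lower as deposited. With both trends removed the median was −0.27, and *Mbtps1* (0.39), *Mbtps2* (0.05) and *Erlin1* (0.26) lay above 0 and the others below it. Between genotypes 0 of 8 passed at day 0, against 1.27% of all genes higher and 4.12% lower. The day 2 Cre/GFP ratio lay below 0 in 8 of 8, against 57.1% of all genes, and 4 of 8 were over 2.5-fold lower, against 10.1%, *Mbtps2*, which encodes the intramembrane protease that releases SREBPs, at −1.47, *Erlin1* at −1.57, *Erlin2* at −1.46 and *Paqr3* at −2.46. With both trends removed only *Paqr3* of these passed the cutoff, and *Mbtps2* was at −0.56.

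Of 18 other fatty acid synthesis genes 12 were expressed. *Hacd2*, a dehydratase of fatty acid elongation, had 6.91, 86.5, 6.22 and 16 RPKM and was the 1 gene higher in both inductions (log2 ratios 3.65 and 1.36). It was also the 1 gene with a day 2 Cre/GFP ratio past the cutoff in the lower direction (−2.43, and −1.69 with both trends removed). *Fads3* was the 1 gene lower in both inductions (−1.75 and −1.91). *Elovl4* was the 1 higher in Ad-Cre cells at day 2, at 1.57, and 0 of 12 passed at day 0. In each induction 1 of 12 was thus higher and 1 lower, against 8.38% and 12.7% of all genes in Ad-GFP cells. In Ad-Cre cells the shares of all genes were 8.68% and 10.0%. Between genotypes 8.16% of all genes were higher and 10.1% lower at day 2, and 1.27% and 4.12% at day 0.

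Markers of the cells also differed between days and between genotypes. The summed RPKM of the 7 adipocyte markers was 31.0, 2105, 16.5 and 514, 7 of 7 were over 2.5-fold higher at day 2 in both genotypes, and the day 2 Cre/GFP ratio of 7 of 7 was past 2.5-fold in the lower direction (median log2 −2.17). The 5 markers of preadipocytes and fibroblasts summed to 1845, 205, 1335 and 268 RPKM. Over 2.5-fold lower at day 2 with Ad-GFP were 4 of 5 (*Pdgfra*, *Dlk1*, *Thy1* and *Col1a1*), against 12.7% of all genes. With Ad-Cre they were 3 of 5 (*Pdgfrb*, *Thy1* and *Col1a1*), against 10.0%. Before induction *Pdgfra* and *Dlk1* were already over 2.5-fold lower without *Mll4*, against 4.12% of all genes. So was 1 of the 7 adipocyte markers, *Pparg* (log2 Cre/GFP ratio −1.73 at day 0). Fewer differentiated cells and less RNA per cell cannot be told apart in these bulk libraries, and their part in the ratios of the lipid genes was not tested. Among the 5 brown fat markers *Cidea* had 0 reads and *Ucp1* at most 1 read in every library, while *Prdm16* had 0.55, 2.14, 0.69 and 0.68 RPKM and *Pdk4* 9.38, 23.7, 2.18 and 6.65. The list summed to 19.7, 42.0, 7.67 and 18.4 RPKM. The remaining marker, *Ebf2*, was expressed and gave nearly all the rest of that sum. It passed the cutoff in none of the 4 comparisons. Markers of macrophages and leukocytes, endothelium and hepatocytes summed to at most 0.24 RPKM in any library, *Ptprc* was at 0 throughout, and the 4 muscle markers summed to 0.54, 0.12, 0 and 1.29 RPKM.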

How the data were processed

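RNA-Seq was analysed from 4 libraries, 1 for each condition, grouped by their sample labels. Reads of 50 bases were aligned to mm9 and kept where they lay on RefSeq exons. As deposited by the authors, the files give a whole-number read count for every transcript, not normalized. Beside it stands the RPKM, which the authors scaled by exon length and mapped reads. The submitters' processing notes also name bedtools 2.16 and SICER 1.1. The use of strand and the treatment of reads with several matches are not given in the sources used here.

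Symbols came from a RefSeq table (GRCm38.p6, names only) and were found for 97.8% of the 29082 transcripts. The transcript with most reads stood for each gene. Locations, exon overlap and GC content were read from GENCODE vM1 (mm9), GC content being found for 94.2% of expressed genes. Windows of 50 bases of each member's transcript were searched for exact matches elsewhere in the genome. Log2 ratios of RPKM were computed with exact binomial 95% intervals of the read counts (scipy 1.17.1), and no test was run. A ratio against 0 reads was taken as past the cutoff in counts and set against 3 reads as a fold. Length and GC trends were removed as medians of 20 bins each in 5 rounds. TMM factors came from edgeR 4.0.16 in R 4.3.3, and no edgeR test was run. Python 3.11.15, numpy 2.4.6, pandas 2.3.3, numba 0.67.0 and matplotlib 3.10.9 were used. Ratios, intervals, calls and trend removal were tested on simulated data.

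Genes given with values in every library are those past 2.5-fold in at least 1 comparison and the rate-limiting or regulatory members. The lists were the 3 member groups, other sterol genes, SREBP processing and degradation, LXR and sterol export or storage, other fatty acid synthesis genes, NADPH supply and 7 marker lists. Some results of these lists are not reported here. Members and lists were chosen with earlier results of these data known. The alternatives comprised 9 planned settings and 3 added after seeing the data.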

Additional observations from a re-analysis of the deposited data

Results flagged for a closer look

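Of the 38 members, 12 had ratios of opposite direction whose counting intervals both lay clear of 0, and these are given with the difference of their log2 ratios of day 2 to day 0, Ad-Cre minus Ad-GFP. None of the differences was tested, since each condition had 1 library.

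As deposited, for 6 genes the level at day 2 lay above day 0 in Ad-GFP cells and below it in Ad-Cre cells. The difference was −2.32 for *Scd1*, −2.12 for *Lss*, −1.09 for *Me1*, −0.99 for *Elovl5*, −0.91 for *Fasn* and −0.73 for *Acaca*. With the length and GC trends removed the ratios of day 2 to day 0 in Ad-GFP and Ad-Cre cells were on the same side of 0 for *Acaca* (0.15 and 0.29) and *Elovl5* (−0.16 and −0.58), and with the length trend alone removed *Fasn* was at −0.04 in Ad-GFP cells. With both trends removed the Ad-GFP ratios of *Lss* (0.04) and *Me1* (0.05) were near 0, against −1.84 and −0.43 in Ad-Cre cells. In these same 6 genes, as deposited, Ad-Cre cells were higher than Ad-GFP cells at day 0 and lower at day 2.

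The other 6 genes had ratios in the same direction over time in both genotypes, or had an interval that held 0 in Ad-GFP cells, and differed in the order of the genotypes. *Hsd17b7* (−1.88), *Cyp51* (−1.22), *Sc5d* (−0.99), *Nsdhl* (−0.89) and *Stard4* (−0.77) were higher in Ad-Cre cells at day 0 and lower at day 2. *Fads1* (0.26) was lower at day 0 and higher at day 2. The day 2 libraries enter all of these differences, and their ratios move with length and GC content over all genes. With both trends removed the Cre/GFP ratio at day 2 was −1.22 for *Lss*, −1.28 for *Scd1*, −0.10 for *Fasn*, −0.33 for *Elovl5*, −0.25 for *Me1*, −0.02 for *Hsd17b7* and −0.05 for *Nsdhl* on the log2 scale, and above 0 for *Cyp51* (0.26), *Stard4* (0.39), *Acaca* (0.34) and *Fads1* (0.30), while *Sc5d* was at 0.0012.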

How the results depend on the processing

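Values are medians of log2 ratios, or members past the cutoff. For sterol enzymes at day 2 over day 0 in Ad-GFP cells, lower genes numbered 4 of 12 without ambiguous or overlapping reads, 1 at a 4-fold cutoff and 3 when the interval had to pass. In Ad-Cre cells the median was −1.12 with summed counts as library size, −1.14 with 1 RPKM added, −1.64 with the length trend removed, −1.47 with GC also removed and −1.82 without ambiguous genes, and 2 were lower at 4-fold. For sterol enzymes between genotypes at day 2 the median was 0.29 with TMM factors and −0.074 without ambiguous genes. There, 2 were higher and 0 lower with TMM factors and with summed counts, 0 and 0 with either trend removal, at 4-fold and by interval, 0 higher without ambiguous genes, and 6 higher at 2-fold.

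In the fatty acid arm the Ad-GFP median was −0.084 with both trends removed, and 5 genes were lower at 2-fold and 1 at 4-fold. In Ad-Cre cells the median was −0.63 with summed counts, −0.67 with length and −0.58 with both trends removed. Lower genes numbered 1 with summed counts or length removed, 6 at 2-fold and 0 at 4-fold, and higher genes 0 with 1 RPKM added. Between genotypes at day 0, 0 were higher with 1 RPKM added or by interval. At day 2 the median was −0.24 with TMM factors, −0.072 with both trends removed and, reversed, 0.024 with length removed. There 1 was lower with 1 RPKM added, and 0 were higher without *Elovl6* and the other ambiguous genes or at 4-fold.

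The trend removals and TMM shift the median of all genes (from −0.16 to 0.02 between genotypes at day 2 for TMM), the 27 unambiguous members are fewer genes, and other causes were not tested. All 38 matched members passed the main filter, so filtering on any library and no filter kept the same genes and ratios and could not move a result. Averaging transcripts moved none of these medians past its interval and none of these counts past 1.5-fold. No paired analysis was possible because each condition has 1 library, and for the same reason no library could be left out. Counting error limits *Idi1*, *Mlxipl* and *Thrsp*, and at other members the spread between cultures is unknown.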

Other observations

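Genes of sterol export, storage and sensing were examined as a list of 10, of which 8 were expressed. The liver X receptors are nuclear receptors for oxysterols that act on cholesterol export. *Nr1h3*, which encodes liver X receptor alpha, had 0.15, 2.74, 0.29 and 1.05 RPKM in Ad-GFP day 0, Ad-GFP day 2, Ad-Cre day 0 and Ad-Cre day 2. *Abca1*, the cholesterol exporter and a known target of these receptors, had 0.97, 27.6, 0.24 and 3.06 RPKM. Both were over 2.5-fold higher at day 2 in both genotypes, with log2 ratios of 4.20 and 1.86 for *Nr1h3* and 4.82 and 3.68 for *Abca1*, so they took the opposite direction to the sterol enzymes. *Soat1*, which esterifies cholesterol for storage, was at −0.84 in Ad-GFP cells. It was the 1 gene of 8 over 2.5-fold lower at day 2 in Ad-Cre cells (−1.36, and −0.76 with both trends removed), against 10.0% of all genes. The log2 ratio of the Ad-Cre to the Ad-GFP library passed the cutoff for *Abca1* on both days (−2.02 at day 0 and −3.17 at day 2). At day 2 it also did so for *Nr1h3* (−1.38, −1.95 to −0.84) and for *Npc1*, a lysosomal cholesterol transporter (−1.48). The genes lower in Ad-Cre cells were thus 1 of 8 at day 0 and 3 of 8 at day 2, against 4.12% and 10.1% of all genes. With the length and GC trends removed *Abca1* and *Nr1h3* remained past the cutoff at day 2 (−2.29 and −1.83) and *Npc1* did not (−0.88).

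Of 6 genes that supply NADPH, 4 were expressed. None passed 2.5-fold in either induction or between genotypes at day 0. Of all genes 8.38% were higher and 12.7% lower in the Ad-GFP induction, and 8.68% and 10.0% in the Ad-Cre induction. Between genotypes at day 0 the shares were 1.27% and 4.12%. *Idh1*, the cytosolic isocitrate dehydrogenase, was the 1 gene past the cutoff between genotypes at day 2, where 10.1% of all genes were lower. It was lower without *Mll4*, with 33.3, 54.1, 32.8 and 18.8 RPKM and a log2 ratio of −1.53, or −1.01 with both trends removed.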
